A study of Mus musculus with 16 samples.

Results

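The 31 genes described here encode the enzymes that break glucose down to pyruvate and lactate, the pyruvate dehydrogenase subunit and kinases that control the entry of pyruvate into mitochondria, the enzymes of gluconeogenesis, and the enzymes that bring fructose and galactose into the same route. The members were given by gene symbol, and each symbol matched 1 of the 45513 Ensembl genes counted in every library. Their mRNA was compared between EpCAM+ tdTom+ and EpCAM+ tdTom- cells sorted from the intestine of 8 Atoh1(WT)CreERT2 R26RtdTom mice, with 1 library of each fraction from each mouse (16 libraries). EpCAM is an epithelial surface protein. In these mice tamoxifen-inducible Cre is expressed from the *Atoh1* locus, so that tdTom, a red fluorescent protein, marks cells in which *Atoh1*, the transcription factor that commits progenitors to the secretory fate, was active when tamoxifen was present, together with the descendants of those cells. The study's methods give C57BL/6 males and females of 8 to 16 weeks, homozygous for the *Atoh1* allele and with 1 copy of the Rosa26 reporter. Both fractions of a mouse therefore share the inherited genotype and the treatment, and differ in whether Cre had switched on the reporter. The labels give tamoxifen at 1 mg per day for 3 days, as does the methods' passage on the secretory signature that this comparison served, whereas the passage on RNA sequencing gives 3 mg. Cells came from the proximal 15 cm of small intestine after the fraction richest in villi had been discarded, so mature villus cells were depleted before the sort and tdTom- is what remained of the EpCAM+ epithelium, not 1 cell type.

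Glycolysis turns glucose into pyruvate through irreversible steps, run by hexokinase, phosphofructokinase and pyruvate kinase, and a chain of reversible enzymes between them. Gluconeogenesis runs the reversible enzymes backwards and bypasses the irreversible ones with pyruvate carboxylase, phosphoenolpyruvate carboxykinase, fructose bisphosphatase and glucose 6-phosphatase. Absorptive enterocytes of the small intestine take up dietary sugar, and ketohexokinase starts the conversion of fructose to glucose and lactate in these cells.

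Levels are given as CPM, the reads of a gene scaled to a common library size by trimmed means of log ratios (TMM). Of the 31 members, 30 were expressed highly enough to be tested, and 22 of them were lower and 3 higher in tdTom+ cells (edgeR quasi-likelihood test, Benjamini-Hochberg adjusted p under 0.01 over 15323 genes). The 3 higher members were the hexokinases *Hk1* and *Hk2* and the mitochondrial carboxykinase *Pck2*. Across all genes tested 27.0% were called lower and 22.7% higher, or 49.6% in either direction, so a call in itself was common in this comparison and the lower direction was the more frequent for the members. The median log2 fold change of the 30 members was -1.03, beside 0.01 for all genes tested. In 19 lower and 2 higher members the 8 tdTom+ values did not overlap the 8 tdTom- values, as was the case for 17.0% and 14.6% of all genes in those directions. When a replicate block for the mouse was included in the edgeR fit, 22 members were again lower and 3 higher, against 30.0% and 25.8% of all genes. A log2 fold change of at least 1 in either direction was reached by 17 called members (15 lower and 2 higher), against 22.4% of all genes. *Pfkl*, *Pfkm*, *Aldoa*, *Pdk1* and *Pdk3* did not pass the threshold, and *Ldhb* was too scarce to be tested.

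**Figure D1:**
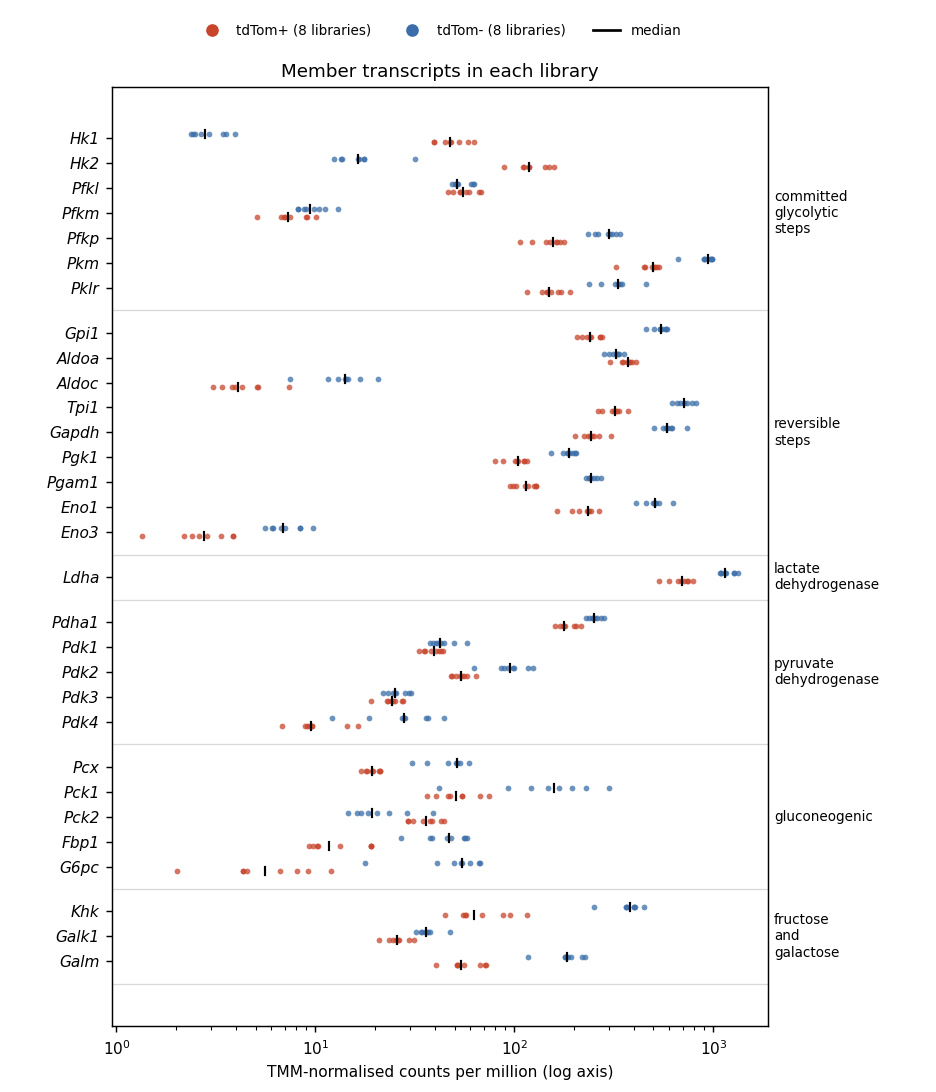
TMM-normalised CPM (log axis) of the 30 tested members in each of the 8 tdTom+ (red) and 8 tdTom- (blue) libraries, grouped by step of the pathway, with black bars at the medians. *Hk1* and *Hk2* lay to the right in tdTom+. Most of the reversible enzymes lay to the left, by distances similar to each other and smaller than those of *Hk1* and *Hk2*. The largest fold differences were those of *Hk1*, *G6pc* and *Hk2*.

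The sort and the label were checked first. *Atoh1* rose from a median of 0.662 CPM in tdTom- to 61.9 CPM in tdTom+, a log2 fold change of 6.44 ± 0.18 (SE, edgeR adjusted p = 1.86e-15), and *Epcam* did not pass the threshold (-0.11 ± 0.07, edgeR adjusted p = 0.153). All 8 goblet, 6 Paneth and 8 enteroendocrine markers were higher in tdTom+, between *Gip* at a log2 fold change of 1.09 and the Paneth gene *Mptx2* at 7.70, as were 5 of 6 tested tuft markers, up to *Dclk1* at 2.49. All 8 absorptive markers were lower, from *Fabp2* at -2.38 to *Apoa4* at -3.59, and their summed level was 1563 to 6021 CPM in tdTom+ and 14550 to 38346 CPM in tdTom-. Of 8 stem cell markers 3 were higher, with *Lgr5* at 0.81 and *Axin2* at -0.13 as the ends of the list, and none of 8 proliferation markers passed the threshold (*Pcna* at -0.19 and *Mcm5* at 0.21 as the ends, summed level 428.5 to 594.8 CPM against 365.6 to 729 CPM). Of 7 tested immune markers *Lyz2*, a close copy of the Paneth gene *Lyz1*, was higher (7.42) and 3 were lower, down to *Gzmb* at -1.93. Of 4 tested stromal and muscle markers *Vim* was higher (3.34) and *Acta2* was at -0.16. The red blood cell markers summed to at most 0.754 CPM. The part of these cell types in the results for the 31 genes was not tested. In bulk libraries of this kind, fewer cells of a type and less mRNA per cell cannot be told apart. Libraries held 17116405 to 25323567 counts, of which the 10 most counted genes took 22.9% to 31.2% in tdTom+ and 9.23% to 24.1% in tdTom-.

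The mouse numbered 7 stood apart in both fractions. Its libraries had the lowest absorptive sums of their fractions (14550 CPM among the tdTom- and 1563 CPM among the tdTom+ libraries), and its tdTom- library had the highest proliferation and stem cell sums (729 CPM and 2828 CPM). Among the 30 tested members, the mouse 7 library was the lowest of the 8 for 17 members in tdTom- and for 17 in tdTom+. Without this mouse all 22 lower members were still called, and *Aldoa* was called in addition to the 3 higher members.

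Hexokinase adds the first phosphate to glucose and so holds it in the cell, and both hexokinase members were far higher in tdTom+ cells. *Hk1* (ENSMUSG00000037012, chr10:62268855-62379908, minus strand, GRCm38), the broadly expressed form, ranged from 39.3 to 62.6 CPM in tdTom+ (median 47.7) and from 2.37 to 3.96 CPM in tdTom- (median 2.79). Its fold change was 16.5 (log2 4.04 ± 0.13 SE, edgeR adjusted p = 1.58e-14, higher in 8 of 8 mice), and the fractions were far apart. *Hk2* (ENSMUSG00000000628, chr6:82725025-82774454, minus strand), the inducible form of muscle and proliferating cells, ranged from 88.8 to 158 CPM in tdTom+ (median 119) and from 12.4 to 31.8 CPM in tdTom- (median 16.4). The fold change of *Hk2* was 7.14 (log2 2.84 ± 0.18 SE, edgeR adjusted p = 1.69e-10), with no overlap and every mouse in the same direction. Per kilobase of exon *Hk2* remained the more abundant of the pair in both fractions, with medians of 19.9 against 5.59 CPM per kilobase in tdTom+ and 2.75 against 0.327 in tdTom-. The log2 ratio of *Hk2* to *Hk1* within a library nevertheless fell from a mean of 2.99 ± 0.42 (SD, n = 8) in tdTom- to 1.85 ± 0.28 in tdTom+ (exact two-sided permutation test over 12870 assignments, p = 0.000155, adjusted over 14 pairs p = 0.000435), so *Hk1* differed by the larger factor.

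The 250 bases before the annotated start of *Hk2* (chr6:82774455-82774704, minus strand, RefSeq annotation of GRCm38.p6) are shown because *Hk2* and the sugar enzymes *Khk* and *G6pc*, shown further on, moved in opposite directions. Capitals mark the letters ACGTG, the core recognised by hypoxia-inducible factors, here read on the opposite strand as CACGT, at 226 and 52 bases before the start.
Hk2: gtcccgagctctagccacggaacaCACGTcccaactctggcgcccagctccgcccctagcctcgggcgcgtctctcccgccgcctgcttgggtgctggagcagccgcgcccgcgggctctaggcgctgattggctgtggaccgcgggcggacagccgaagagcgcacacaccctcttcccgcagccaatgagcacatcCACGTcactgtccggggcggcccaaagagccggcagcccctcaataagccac
ACGTG on either strand was present in 14 of 45 windows of the 30 members that matched RefSeq (12 members, several with more than 1 start) and in 16.6% of all 32851 windows of this length. The match describes the letters and not a bound site.

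The remaining committed steps did not follow *Hk1* and *Hk2*. Phosphofructokinase commits the sugar to glycolysis, and its platelet-type subunit *Pfkp* fell from a median of 299 CPM in tdTom- (235 to 340) to 157 CPM in tdTom+ (107 to 177). The log2 fold change of *Pfkp* was -0.96 ± 0.11 (SE, edgeR adjusted p = 2.40e-07), without overlap. The liver-type subunit *Pfkl* had medians of 55.2 CPM in tdTom+ and 51.6 CPM in tdTom-, with overlapping ranges (0.05 ± 0.09, edgeR adjusted p = 0.674). The muscle-type subunit *Pfkm* was the least abundant, at medians of 7.24 and 9.41 CPM, and did not pass the threshold (-0.36 ± 0.13, edgeR adjusted p = 0.0262), although DESeq2 with a replicate block called it lower (adjusted p = 0.00919). The ratio of *Pfkp* to *Pfkl* was lower in tdTom+ in all 8 mice, at a mean log2 ratio of 0.30 ± 0.21 (SD, n = 8) against 1.31 ± 0.22 (exact permutation p = 0.000155, adjusted p = 0.000435). Per kilobase and within a library, the median share of *Pfkp* in the sum of the 2 subunits was 70.6% in tdTom- and 54.8% in tdTom+. The ratio of *Pfkm* to *Pfkl* differed by -0.41 ± 0.13 (SE over mice, exact permutation p = 0.0329, adjusted p = 0.0419), a call that was lost when mouse 2, 3, 4, 7 or 8 was left out.

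Pyruvate kinase makes pyruvate in the last step of glycolysis, and both of its genes fell by a similar amount. *Pkm* ranged from 325 to 533 CPM in tdTom+ (median 496) and from 661 to 990 CPM in tdTom- (median 936), and its log2 fold change was -0.95 ± 0.10 (SE, edgeR adjusted p = 2.70e-07). *Pklr*, the form of liver and red cells, ranged from 116 to 191 CPM in tdTom+ (median 150) and from 237 to 457 CPM in tdTom- (median 331), with a log2 fold change of -1.10 ± 0.12 (edgeR adjusted p = 1.94e-07). Neither gene overlapped between fractions. The log2 ratio of *Pklr* to *Pkm* was -1.94 ± 0.13 (SD, n = 8) in tdTom+ and -1.79 ± 0.18 in tdTom-, which did not pass the exact permutation test over libraries (p = 0.0848, adjusted p = 0.099) and did in the exact sign-flip test over the 8 mice (adjusted p = 0.0273). The difference was -0.14 ± 0.05 (SE over mice). Gene counts do not separate the spliced forms of *Pkm*.

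**Figure D2:**
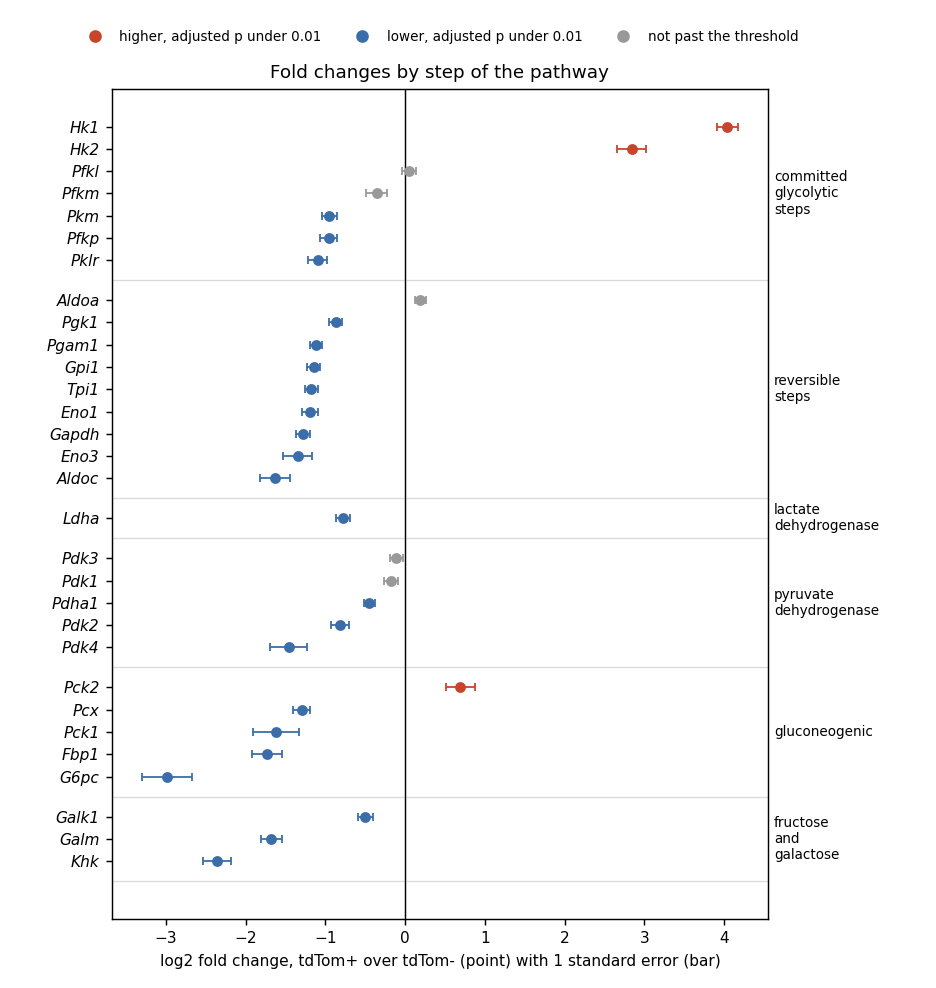
Log2 fold change of tdTom+ over tdTom- (points) with 1 standard error (bars) for the 30 tested members, ordered within each step of the pathway. Red and blue points passed an edgeR adjusted p of 0.01 and grey points did not. Only *Hk1*, *Hk2* and *Pck2* passed to the right of 0, and 7 of the 8 lower reversible enzymes lay between -0.87 and -1.35.

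The reversible enzymes fell together, in 8 of 9 members, with a median log2 fold change of -1.18. The summed level of the 9 was 1340 to 1845 CPM in tdTom+ and 2766 to 3567 CPM in tdTom-. *Gpi1*, the phosphoglucose isomerase, had medians of 241 CPM in tdTom+ and 546 CPM in tdTom- (-1.15 ± 0.08). *Tpi1*, which interconverts the triose phosphates, had medians of 322 and 710 CPM (-1.18 ± 0.08). *Gapdh*, the glyceraldehyde phosphate dehydrogenase that is often used as a reference gene, ranged from 202 to 307 CPM in tdTom+ (median 243) and from 501 to 734 CPM in tdTom- (median 585). Its log2 fold change was -1.28 ± 0.09 (SE, edgeR adjusted p = 7.50e-10), so *Gapdh* was not level between these fractions under any alternative tried (-1.34 to -1.16). The phosphoglycerate kinase *Pgk1* (104 against 189 CPM, -0.87 ± 0.08) and the mutase *Pgam1* (115 against 241 CPM, -1.12 ± 0.07) were lower as well. *Eno1*, the widespread enolase, had medians of 233 and 508 CPM (-1.19 ± 0.10), and each of these 6 genes was lower in 8 of 8 mice with no overlap.

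Counts of these genes share reads with annotated copies. Copies held 32.3% to 34.5% of the sum of gene and copies for *Pgk1*, 25.2% to 26.7% for *Eno1*, 16.9% to 20% for *Pgam1*, 3.21% to 3.65% for *Gapdh*, 2.46% to 3.5% for *Ldha* and 0.95% to 1.26% for *Aldoa*. With the counts of the copies added to the gene, each of the 5 genes among these that had been called lower was still called lower.

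Aldolase splits the sugar bisphosphate into trioses, and it was the exception among the reversible steps. *Aldoa*, the main glycolytic form, ranged from 301 to 409 CPM in tdTom+ (median 372) and from 283 to 357 CPM in tdTom- (median 325), with overlapping ranges. Its log2 fold change of 0.19 ± 0.07 (SE, higher in 7 of 8 mice) did not pass the threshold (edgeR adjusted p = 0.0304). It passed without mouse 3 (0.26, edgeR adjusted p = 0.00889), without mouse 7 (0.23, edgeR adjusted p = 0.00518), and in DESeq2 with a replicate block (0.19, adjusted p = 0.00797). *Aldoc*, the form of brain, was scarce and lower, at 3.06 to 7.33 CPM in tdTom+ (median 4.10) and 7.43 to 20.6 CPM in tdTom- (median 14.1), with a log2 fold change of -1.63 ± 0.19 (edgeR adjusted p = 6.21e-07). The ratio of *Aldoc* to *Aldoa* was lower in tdTom+ in 8 of 8 mice, by 1.80 ± 0.18 on the log2 scale (SE over mice, exact permutation p = 0.000155, adjusted p = 0.000435). *Eno3*, the muscle enolase, was likewise scarce, at medians of 2.74 and 6.87 CPM (-1.35 ± 0.18, edgeR adjusted p = 2.93e-06). The ratio of *Eno3* to *Eno1* differed by -0.18 ± 0.16 (SE over mice, exact permutation p = 0.41, adjusted p = 0.41), so the enolase pair fell by amounts that could not be told apart.

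At the end of glycolysis, lactate dehydrogenase converts pyruvate to lactate. *Ldha* ranged from 530 to 787 CPM in tdTom+ (median 699) and from 1080 to 1326 CPM in tdTom- (median 1147). It was lower in all 8 mice without overlap, with a log2 fold change of -0.78 ± 0.09 (SE, edgeR adjusted p = 3.16e-07). Per kilobase *Ldha* had the highest median of the 31 members in both fractions, 234 CPM per kilobase in tdTom+ and 385 in tdTom-. *Ldhb*, the heart-type subunit, had 1 to 7 counts in the tdTom+ libraries and 0 to 5 in the tdTom- libraries, near the floor of 3 counts, and no fold change is given. Its ratio to *Ldha* passed the test (adjusted p = 0.00326, exact permutation test) with these few counts in the numerator, and nothing is read from it.

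Pyruvate enters the citric acid cycle through the pyruvate dehydrogenase complex, which its kinases switch off. *Pdha1*, the catalytic subunit, ranged from 160 to 217 CPM in tdTom+ (median 178) and from 228 to 282 CPM in tdTom- (median 250), and its log2 fold change was -0.45 ± 0.07 (SE, edgeR adjusted p = 2.16e-05). The fractions did not overlap, although the change was small. Among the kinases, *Pdk2* had medians of 54.0 CPM in tdTom+ and 95.5 CPM in tdTom- (-0.82 ± 0.11, edgeR adjusted p = 2.86e-06). *Pdk4*, the kinase induced by fasting and by fat, ranged from 6.79 to 16.3 CPM in tdTom+ (median 9.45) and from 12.1 to 44.3 CPM in tdTom- (median 28.0), with a log2 fold change of -1.46 ± 0.23 (edgeR adjusted p = 1.92e-05). Both were lower in 8 of 8 mice, and the ranges of both overlapped because of mouse 7, whose tdTom- values were the lowest of that fraction (62.6 CPM for *Pdk2* and 12.1 CPM for *Pdk4*). *Pdk1* (39.4 against 42.0 CPM, -0.18 ± 0.09, edgeR adjusted p = 0.0819) and *Pdk3* (24.2 against 25.3 CPM, -0.11 ± 0.08, edgeR adjusted p = 0.29) did not pass the threshold.

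The balance of the kinases therefore differed between fractions. Within a library, the log2 ratio of *Pdk1* to *Pdk2* was higher in tdTom+ by 0.63 ± 0.12 (SE over mice, exact permutation p = 0.00591, adjusted p = 0.00919, 7 of 8 mice). The ratio of *Pdk3* to *Pdk2* was higher by 0.70 ± 0.09 (exact permutation p = 0.00124, adjusted p = 0.0029, 8 of 8 mice). The ratio of *Pdk4* to *Pdk2* was lower by 0.60 ± 0.13 (exact permutation p = 0.0126, adjusted p = 0.0176, 8 of 8 mice), and without mouse 1 the adjusted p was 0.0519. *Pdk2* was the most abundant of the 4 per kilobase in both fractions, with medians of 17.1 and 30.2 CPM per kilobase.

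The gluconeogenic enzymes were lower in 4 of 5 members, with a median log2 fold change of -1.62. *G6pc*, the catalytic subunit of glucose 6-phosphatase that releases free glucose, showed the largest fall of all members. Its level (ENSMUSG00000078650, chr11:101367561-101377903, plus strand, GRCm38) ranged from 2.0 to 11.9 CPM in tdTom+ (median 5.57) and from 17.7 to 67.3 CPM in tdTom- (median 54.2). The fractions did not overlap, and the log2 fold change was -2.99 ± 0.31 (SE, edgeR adjusted p = 1.03e-07, a fold of 7.97). The lowest value of each fraction came from mouse 7, and without it the log2 fold change was -2.98.

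The window before *G6pc* (chr11:101367466-101367715, plus strand, GRCm38.p6) is shown as that of the member that fell most. Capitals mark GTTAATNAT, letters recognised by hepatocyte nuclear factor 1 proteins, at 221 bases before the RefSeq start, and the TATA box TATAAA at 29 bases before it. This start lies 155 bases downstream of the gene start in the counting annotation.
G6pc: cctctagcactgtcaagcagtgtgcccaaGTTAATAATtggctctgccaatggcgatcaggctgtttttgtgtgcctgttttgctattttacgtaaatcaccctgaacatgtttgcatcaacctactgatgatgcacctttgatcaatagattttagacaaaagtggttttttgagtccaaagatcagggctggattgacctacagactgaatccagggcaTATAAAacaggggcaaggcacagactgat
GTTAATNAT on either strand was found in 1 of 45 member windows and in 0.737% of all windows. TATAAA was found in 2 of 45 member windows (*G6pc* and *Pklr*) and in 12.4% of all windows.

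*Fbp1*, the fructose bisphosphatase that opposes phosphofructokinase, ranged from 9.32 to 19.1 CPM in tdTom+ (median 11.8) and from 26.9 to 57.7 CPM in tdTom- (median 46.9). Its log2 fold change was -1.73 ± 0.19 (SE, edgeR adjusted p = 3.13e-07), with no overlap. *Pcx*, the mitochondrial pyruvate carboxylase, ranged from 16.9 to 21.1 CPM in tdTom+ (median 19.3) and from 30.7 to 59.5 CPM in tdTom- (median 51.2), a log2 fold change of -1.30 ± 0.11 (edgeR adjusted p = 1.01e-08). *Pcx* was the most even of the 5 across the tdTom+ libraries.

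Phosphoenolpyruvate carboxykinase exists in a cytosolic form, *Pck1*, and a mitochondrial form, *Pck2*, and these moved in opposite directions. *Pck1* (ENSMUSG00000027513, chr2:173153048-173159273, plus strand) ranged from 36.5 to 74.5 CPM in tdTom+ (median 51.0) and from 41.8 to 298 CPM in tdTom- (median 158). It was lower in 8 of 8 mice, with a log2 fold change of -1.62 ± 0.29 (SE, edgeR adjusted p = 7.33e-05), and its tdTom- libraries were the most spread of the gluconeogenic members. *Pck2* (ENSMUSG00000040618, chr14:55540266-55550017, plus strand) ranged from 29.1 to 44.4 CPM in tdTom+ (median 36.0) and from 14.5 to 39.0 CPM in tdTom- (median 19.4). It was higher in 8 of 8 mice, with a log2 fold change of 0.69 ± 0.18 (edgeR adjusted p = 0.00242). The call for *Pck2* was lost without mouse 1 (edgeR adjusted p = 0.0101), mouse 5 (0.0131) or mouse 6 (0.0104), at log2 fold changes of 0.66, 0.58 and 0.63. In mouse 7 both forms were nearly level between fractions, with *Pck1* at 36.5 CPM in the tdTom+ and 41.8 CPM in the tdTom- library and *Pck2* at 43.0 and 39.0 CPM, and without this mouse the log2 fold changes were -1.70 and 0.82. The ratio of *Pck2* to *Pck1* was higher in tdTom+ by 2.20 ± 0.36 on the log2 scale (SE over mice, exact permutation p = 0.00186, adjusted p = 0.00326), in 8 of 8 mice. Per kilobase and within a library, the median share of *Pck2* in the sum of both forms was 10.8% in tdTom- and 42.9% in tdTom+.

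**Figure D3:**
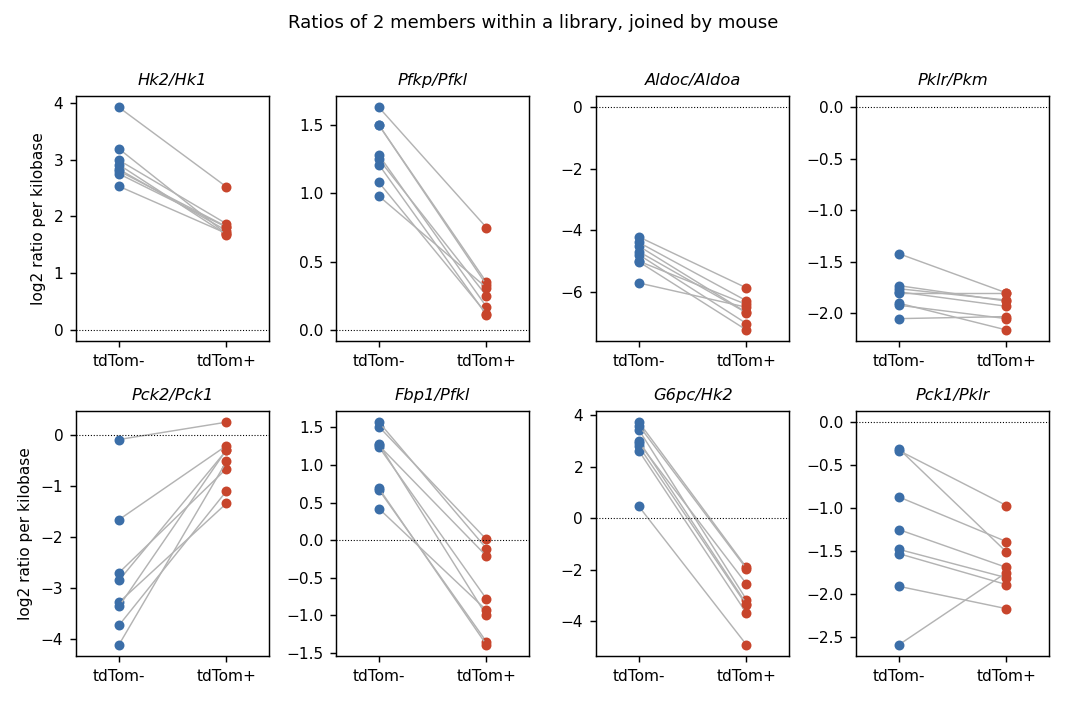
Log2 ratios of pairs of members per kilobase of exon (vertical axes, 1 panel a pair) in the tdTom- and tdTom+ library of each mouse, with grey lines joining the libraries of a mouse and dotted lines at equal levels. *G6pc*/*Hk2* changed side in all 8 mice, *Pck2*/*Pck1* was higher in tdTom+ in all 8, and *Pklr*/*Pkm* moved little.

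Opposing enzymes were compared within libraries, which does not depend on the scaling between them. The log2 ratio of *G6pc* to *Hk2*, which act in opposite directions on glucose, was 2.83 ± 1.03 (SD, n = 8) in tdTom- and -3.11 ± 0.99 in tdTom+, a difference of -5.94 ± 0.16 (SE over mice, exact permutation p = 0.000155, adjusted p = 0.000435). Per kilobase *G6pc* exceeded *Hk2* in all 8 tdTom- libraries and in none of the tdTom+ libraries. Its median share of the sum was 88.7% in tdTom- and 9.57% in tdTom+. The change of side depends on the gene chosen for the hexokinase step. Median *G6pc* (22.47 CPM per kilobase in tdTom-, 2.306 in tdTom+) also changed side against *Hk1* (0.327 and 5.592). It was below the hexokinase-like gene *Hkdc1*, not a member, in both fractions (74.98 and 11.99). No pair with *Hkdc1* was tested. The log2 ratio of *Fbp1* to *Pfkl* was 1.08 ± 0.43 in tdTom- and -0.72 ± 0.55 in tdTom+ (exact permutation p = 0.000155, adjusted p = 0.000435), with a share for *Fbp1* of 70.4% and 35.6%. This change of side, too, depends on the genes chosen. Median *Fbp1* (27.57 CPM per kilobase in tdTom-, 6.902 in tdTom+) was below *Pfkp* in both fractions (31.8 and 16.69). Another bisphosphatase gene, *Fbp2*, not a member, was above *Pfkl* in both (216.3 and 86.89, against 11.74 and 12.57). Neither *Fbp1* with *Pfkp* nor any pair with *Fbp2* was tested. *Pck1* against *Pklr* differed by -0.36 ± 0.20 (SE over mice, exact permutation p = 0.252, adjusted p = 0.271), both genes being lower in tdTom+. The value 0.000155 is the smallest that the 12870 assignments allow, and 11 of the 14 pairs passed an adjusted p of 0.05, including the *Ldhb* pair.

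Fructose and galactose enzymes were lower in 3 of 3 members. *Khk*, the ketohexokinase that phosphorylates fructose (ENSMUSG00000029162, chr5:30921895-30931246, plus strand, GRCm38), ranged from 44.9 to 116 CPM in tdTom+ (median 62.9) and from 251 to 446 CPM in tdTom- (median 383). Its log2 fold change was -2.36 ± 0.18 (SE, edgeR adjusted p = 1.90e-09, a fold of 5.15), with no overlap. *Galm*, the mutarotase that prepares galactose, ranged from 40.4 to 71.9 CPM in tdTom+ (median 53.9) and from 117 to 226 CPM in tdTom- (median 184), a log2 fold change of -1.68 ± 0.13 (edgeR adjusted p = 3.69e-09). *Galk1*, the galactokinase, showed a smaller difference, with medians of 25.7 and 35.9 CPM (-0.50 ± 0.09, edgeR adjusted p = 6.42e-05), and its highest tdTom+ value, 31.2 CPM, lay just under its lowest tdTom- value, 31.9 CPM.

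The window before *Khk* (chr5:30921309-30921558, plus strand, GRCm38.p6) is shown as that of the fructose enzyme. Capitals mark the E-box CACGTG, which also holds ACGTG, at 71 bases before the RefSeq start. This start lies 336 bases upstream of the gene start in the counting annotation.
Khk: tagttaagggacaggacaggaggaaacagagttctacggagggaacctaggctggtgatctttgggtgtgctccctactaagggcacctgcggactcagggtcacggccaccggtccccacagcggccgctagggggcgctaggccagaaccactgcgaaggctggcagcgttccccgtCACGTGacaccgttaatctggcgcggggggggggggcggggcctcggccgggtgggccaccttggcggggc
CACGTG was found in 6 of 45 member windows (*Galk1*, *Khk*, *Ldha*, *Pcx*, *Pdk2* and *Pfkm*) and in 6.02% of all windows, and AGATAA, letters recognised by GATA factors, in 7 member windows of 5 genes (*Fbp1*, *Pck1*, *Pdk4*, *Pfkm* and *Pklr*) and in 9.99% of all windows. *Galm* had no matching entry.

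The fall was deeper, by the medians, in the gluconeogenic group (-1.62) and in the fructose and galactose group (-1.68) than in the reversible enzymes (-1.18), and the difference between groups was not tested. The ranges of the groups overlapped, since *Galk1* at -0.50 and *Pck2* at 0.69 lay above most reversible enzymes and *Aldoc* at -1.63 lay among the gluconeogenic ones. The gluconeogenic group holds 5 members and the fructose and galactose group 3. In the other lists described further on, the median was -1.29 for 7 tested gluconeogenic genes. It was -0.58 for 10 fructose, galactose, polyol and mannose genes. The 3 members with the most negative log2 fold changes were *G6pc* (-2.99), *Khk* (-2.36) and *Fbp1* (-1.73).

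**Figure D4:**
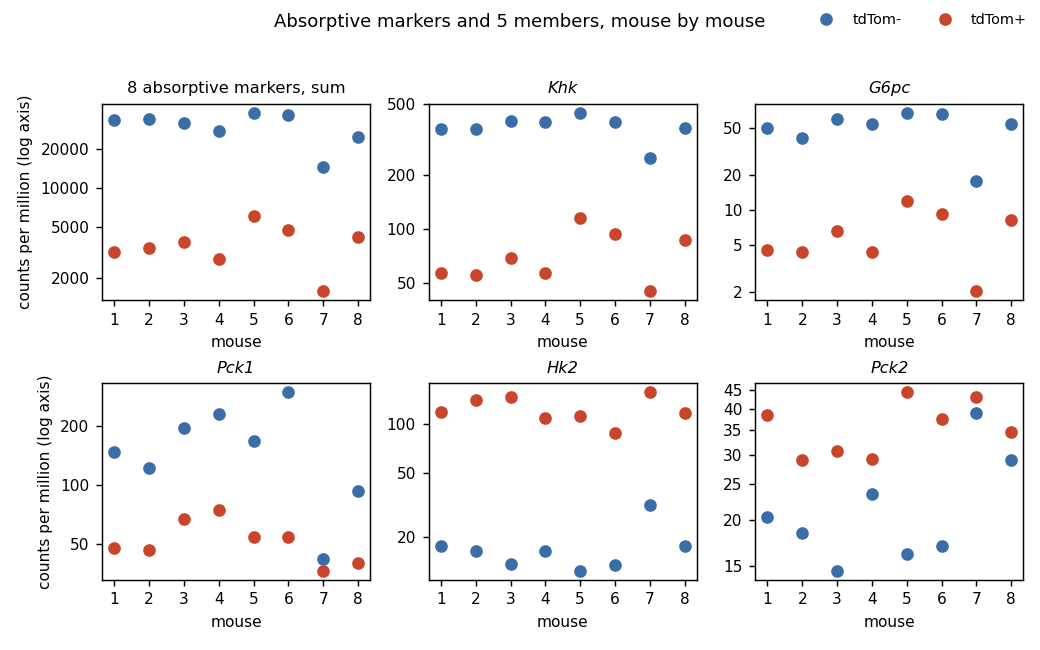
Summed level of the 8 absorptive markers and levels of *Khk*, *G6pc*, *Pck1*, *Hk2* and *Pck2* (CPM, log axes) in the tdTom- (blue) and tdTom+ (red) library of each mouse. Mouse 7 had the lowest absorptive sums, 14550 and 1563 CPM, and in both fractions the lowest *Khk*, *G6pc* and *Pck1* and the highest *Hk2*.

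Between mice the members varied along with the absorptive markers in part. Mouse 5 had the highest absorptive sum in tdTom+ (6021 CPM) and the highest value of the fraction for 16 of the 30 members, and it had the highest value for 13 members in tdTom-. The lowest values were those of mouse 7, as given above. *Hk2* went the other way, with its highest tdTom- value (31.8 CPM) and its highest tdTom+ value (158 CPM) in mouse 7. Within every mouse, the tdTom+ library still had lower *Khk*, *G6pc* and *Pck1* and higher *Hk2* than the tdTom- library.

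The other genes of the neighbouring pathways were taken as 9 lists of 92 genes in all. Of 86 tested, 58 were lower and 14 higher in tdTom+, a total of 72 calls, with a median log2 fold change of -0.56. Across all genes tested 27.0% were lower and 22.7% higher, or 49.6% in either direction, with a median of 0.01. The counts of each list below are to be read beside these shares. Among other isoforms and side enzymes of glycolysis, 8 of 11 tested genes were lower and 2 higher. The hexokinase-like gene *Hkdc1* was lower (-2.43 ± 0.15), at medians of 61.6 CPM in tdTom+ and 385 CPM in tdTom-. *Hkdc1* thus moved opposite to *Hk1*, which lies next to it on chromosome 10.

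Of the other gluconeogenic enzymes, 6 of 7 tested were lower, from *Mdh1*, the cytosolic malate dehydrogenase (-1.65 ± 0.11), to *Got2*, the mitochondrial aspartate aminotransferase (-0.50 ± 0.10). Of 10 other fructose, galactose, polyol and mannose genes, 6 were lower and 4 higher. *Tkfc*, the triokinase of fructose use, was lower (110 against 508 CPM, -2.09 ± 0.16, edgeR adjusted p = 2.56e-09), as was *Glyctk*, the glycerate kinase (-2.19 ± 0.21). *Galk2*, which phosphorylates N-acetylgalactosamine, was higher (61.7 against 24.2 CPM, 1.29 ± 0.07), opposite to *Galk1*.

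**Figure D5:**
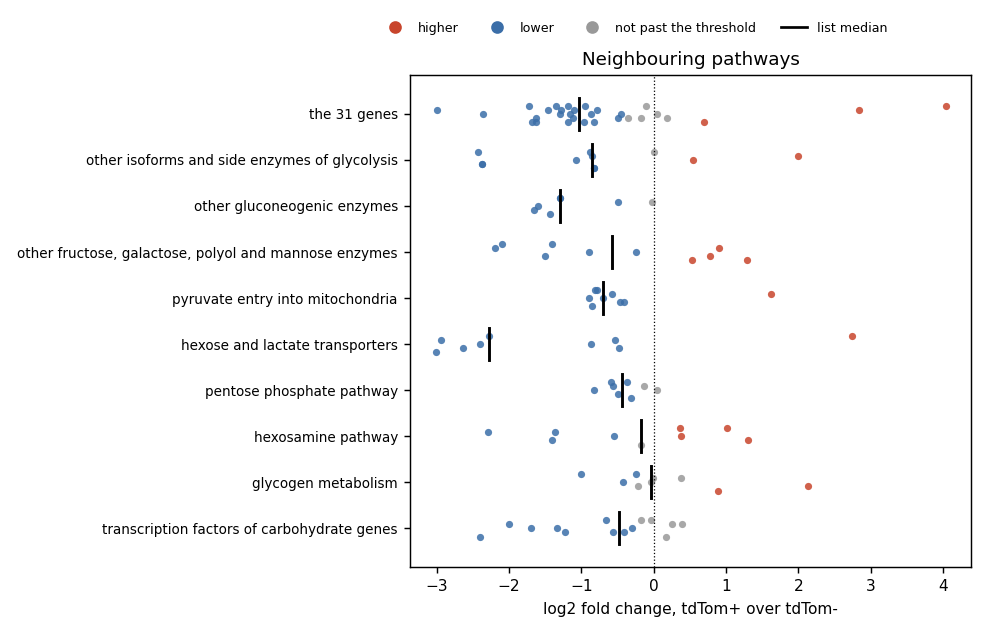
Log2 fold change of tdTom+ over tdTom- for each tested gene of the 31 and of 9 neighbouring lists (points, red and blue where an edgeR adjusted p of 0.01 was passed, grey otherwise), with list medians as black bars. The transporters had the lowest median, -2.27, with *Slc2a1* alone at 2.74.

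The hexose and lactate transporters, of which *Slc5a1* is also an absorptive marker, were lower in 8 of 9 genes. *Slc2a5*, the fructose transporter of the brush border, had medians of 25.2 CPM in tdTom+ and 156 CPM in tdTom- (-2.40 ± 0.17, edgeR adjusted p = 1.13e-09). *Slc2a2*, the transporter through which hexoses leave the cell, had medians of 52.2 and 454 CPM (-2.94 ± 0.30, edgeR adjusted p = 8.69e-08), and the sodium-coupled *Slc5a4b* had the lowest value of the list (-3.01 ± 0.29). *Slc2a1*, the broadly expressed glucose transporter, was the exception and rose from 9.10 CPM (7.98 to 15.8) to 64.7 CPM (55.2 to 84.8), a log2 fold change of 2.74 ± 0.14 (edgeR adjusted p = 8.66e-12), in 8 of 8 mice. Its direction was that of *Hk1* and *Hk2*. Of 9 genes for pyruvate entry into mitochondria 8 were lower, down to the phosphatase *Pdp2* (-0.89 ± 0.09), and the related phosphatase *Pdp1* was higher (1.62 ± 0.13).

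The pentose phosphate list had 6 of 8 genes lower by small amounts, from *Pgd* (-0.82 ± 0.06) to *Rpe* (-0.31 ± 0.06). In the hexosamine list, which makes the amino sugars used in glycosylation, 4 of 9 tested genes were higher and 4 lower. *Gfpt1*, its first enzyme, rose from a median of 266 CPM to 564 CPM (1.02 ± 0.11, edgeR adjusted p = 2.93e-07), and *Gnpnat1*, the acetyltransferase, rose from 16.9 to 46.2 CPM (1.31 ± 0.09). *Gnpda1*, the deaminase that works against *Gfpt1*, fell from 95.5 to 18.0 CPM (-2.29 ± 0.20). Of 9 tested glycogen genes 2 were higher and 3 lower, with the phosphorylase *Pygl* at 2.14 ± 0.24 and the branching enzyme *Gbe1* at -0.43 ± 0.13 as the ends among the called genes of at least 1 CPM. The adjusted p of *Gbe1* in the edgeR test was 0.00747, and the call was lost without mouse 1, 2, 3, 4, 5 or 6. Of 14 transcription factors linked to carbohydrate genes 9 were lower and none higher, with the coactivator *Ppargc1a* at -2.40 ± 0.21 as the lowest of the list.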

How the data were processed

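The authors aligned reads with TopHat2 2.1.1 and counted them with featureCounts (Subread 1.5.2 in the submitters' processing notes, 1.5.0-p1 in the file headers) on GRCm38, over exons of each gene, reverse-stranded and for primary alignments. A read that maps to several places is thus counted once, and genes with near-identical copies are uncertain. The deposited values are raw counts per Ensembl gene, with no normalisation. Symbols were found for 44585 of 45513 identifiers.

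From these counts, genes were kept by filterByExpr with the fraction as group (15323 genes) and scaled with TMM factors in edgeR 4.0.16 (R 4.3.3). Fractions were compared with the quasi-likelihood F-test, adjusted by the Benjamini-Hochberg method, with a threshold of 0.01. The study's methods used DESeq2 1.14.1 and name no block for the mouse, so the main fit had none. The standard error is the log2 fold change divided by the square root of F. Values in the text are TMM-normalised CPM, per kilobase of exon where genes are compared. Pair ratios used a prior count of 2 and exact two-sided permutation tests, adjusted over 14 pairs with a threshold of 0.05. The edgeR test was checked on simulated counts and the permutation test on simulated normal values. The sign-flip test was not checked by simulation.

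Both fractions of a number came from the same mouse. Deviations from the fraction means correlated between same-numbered libraries with a mean r of 0.426 (0.245 to 0.634 over the 8 mice and 15323 genes), against -0.0569 for other pairs. For 8 of 8 tdTom- libraries the best-matching tdTom+ library was that of the same number.

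Alternatives were other scalings (size factors by relative log expression, library totals, TMM without the 10 most counted genes), other filters (none, at least 10 counts in every library), DESeq2 1.42.0 and limma-voom (limma 3.58.1), the replicate block, other thresholds, thinning to 17116405 counts, adding the counts of annotated copies, and leaving out each mouse. The members, the pathway lists, the pairs and the marker lists were chosen with earlier results of these data known. Named genes of the other lists are the called genes with the largest and smallest log2 fold change at 1 CPM or more in the higher fraction, plus *Tkfc*, *Slc2a2*, *Slc2a5* and *Gfpt1*; some genes this rule selects are not reported here. Promoter windows were RefSeq sequences (GRCm38.p6), searched on both strands. Protein sequences were not used here.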

Additional observations from a re-analysis of the deposited data

Results flagged for a closer look

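Of 60 sets of 8 libraries (30 members in each fraction), 6 held a library far from the other 7, by a gap of more than 0.526 of the range of the set. Chance flags about 1 set in 20, or 3 of 60. In 5 of the 6 the library came from mouse 7, the mouse with the lowest absorptive marker sums (14550 and 1563 CPM). In tdTom-, its *Hk2* was the highest at 31.8 CPM, with the others at 12.4 to 17.6 CPM, and its *Pkm* (661 CPM, others 898 to 990), *Khk* (251 CPM, others 362 to 446) and *Galm* (117 CPM, others 179 to 226) were the lowest. In tdTom+, its *Pkm* was the lowest at 325 CPM, with the others at 449 to 533 CPM. The remaining set was *Galk1* in tdTom-, where mouse 8 was the highest at 47.3 CPM and the others were at 31.9 to 37.7 CPM. Without mouse 7 the log2 fold changes were 2.96 for *Hk2*, -0.94 for *Pkm*, -2.35 for *Khk* and -1.69 for *Galm*, and all 4 were still called by the edgeR test.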

How the results depend on the processing

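The direction and the side of the threshold were the same in 609 of 630 values of members under the alternatives, 11 lost the call, 8 gained it and 2 changed sign, *Pfkl* with library totals only (-0.02) and *Pdk3* with at least 10 counts in every library (0.01), neither of them called. Lower members numbered 22 whichever mouse was left out, higher members 2 to 4, called genes of the other lists 66 to 74 and called pairs 10 to 11. A log2 fold change of at least 1 left 33 of the 72 calls in the other lists (86 genes tested), against 22.4% of all genes tested. With edgeR and a replicate block the counts were 3 higher members, 22 lower members and 74 genes of the other lists, and 12 pairs passed the exact sign-flip test over mice. The block changed no call of a member in edgeR, and among pairs it added *Pklr*/*Pkm*. In DESeq2 the counts were 3 higher and 22 lower members without the block and 4 and 23 with it, the additions being *Aldoa* (adjusted p = 0.0101 without and 0.00797 with the block) and *Pfkm* (0.0231 and 0.00919). The scalings tried moved the median of all genes by -0.061 to 0.035. It moved more under 3 other alternatives, by 0.119 (at least 10 counts in every library), 0.109 (thinned) and 0.103 (without mouse 3) on the log2 scale, and higher calls were then 55.0%, 55.3% and 55.1% of all calls, against 45.7%. *Aldoa* was called in each of these. Among the 31 members *Ldhb* alone was too scarce to be tested, at no more than 7 counts a library, as were 6 of the 92 genes of the other lists.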
